A study of Drosophila melanogaster with 12 samples.

Results

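The 9 genes described here encode subunits of eukaryotic translation initiation factor 3 (eIF3): *eIF3a*, *eIF3b*, *eIF3c*, *eIF3d1*, *eIF3e*, *eIF3f1*, *eIF3g1*, *eIF3h* and *eIF3i*. They were taken by name from the 17612 genes of the deposited count table, and all 9 were measured in all 12 libraries and passed the filter on low counts in every comparison. The table also holds 7 other eIF3 genes, namely *eIF3j*, *eIF3k*, *eIF3l*, *eIF3m* and the second copies *eIF3d2*, *eIF3f2* and *eIF3g2*, which are described after the 9.

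eIF3 is a large protein complex that binds the small ribosomal subunit, helps to recruit the initiator tRNA and the mRNA, and keeps the subunit open for scanning to the start codon. In yeast the complex is small and is built from the counterparts of subunits a, b, c, g and i, and in animals further subunits surround that core. Subunits with PCI domains (among them a, c and e) and subunits with MPN domains (f and h) form a shell that is structurally akin to the lid of the proteasome, while b, g and i form a mobile module.

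The libraries come from an RNA immunoprecipitation (RIP) experiment, in which an RNA-binding protein is pulled down with an antibody and the RNA that comes with it is sequenced. The protein was Caper, a *Drosophila* splicing factor whose vertebrate counterpart is RBM39, and the comparison of IP with input asked which RNAs came down with it. All 12 libraries were made from adult heads of the genotype Hsp70Gal4 x UASCaperFlag, held at 37°C for 2 h and then at 30°C overnight. There were 4 groups of 3 libraries: Caper IP 1 to 3 (rabbit antibody to Caper), FLAG IP 4 to 6 (mouse antibody to the FLAG tag), and the input of each IP under the same number. Every animal, including those behind the inputs, thus carried FLAG-tagged Caper, expressed above its own level under the control of a heat shock promoter that is not restricted to neurons. No mock IP was analysed here, so a value above the input measures enrichment in the IP and not binding to Caper as such. The labels do not say whether replicates were separate collections of flies, so the p-values measure the spread between these libraries.

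The libraries held 9615414 to 34264177 counts, with the IPs at 20431211 or more and the inputs at 12579559 or fewer. Among the alignments, 22.7 to 26.2% counted toward a gene for inputs, 69.3 to 72.4% for Caper IPs and 53.7 to 60.1% for FLAG IPs. All 5 marker genes of each of 5 cell types (neurons, photoreceptors, glia, fat body and muscle) were detected in every library, and the summed level of the fat body markers varied most, from 4676 to 21841 CPM (counts per 1000000 after TMM scaling). Some sums moved with the IPs. In the Caper series the glia markers lay between 1394 and 1621 CPM in the inputs and between 1710 and 2008.5 CPM in the IPs, and the neuron markers between 4393 and 4731.5 CPM and between 4766 and 5026 CPM. The photoreceptor markers lay between 40827 and 44065 CPM in the FLAG inputs and between 27896 and 32010.5 CPM in the FLAG IPs, the muscle markers between 9468 and 11207 CPM and between 7574 and 7834 CPM, and the neuron markers between 4336.5 and 4651 CPM and between 5770 and 6071 CPM. Not every marker moved with its sum. In the Caper IP *Eaat1* was called lower among the glia markers, and *repo* and *moody* higher. With the block described below, *Syt1* was called lower there among the neuron markers, and *nSyb* and *Syx1A* higher. In the FLAG IP the block gave the muscle marker *up* higher, and *Mhc*, *Act88F*, *wupA* and *Mlc2* lower. The part of such differences in the members' values was not tested. The number of genes called in the Caper IP moved with single libraries, with 5 genes called higher without Caper input 2 and 1159 without Caper IP 1, against 682 with all 6 libraries.

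In the inputs the 9 mRNAs were abundant and of the same order. Each had between 1047 and 20335 counts in every library. To compare genes, counts were divided by exon length (RPKM, the CPM per kilobase of exon), and on this scale *eIF3f1* was highest at 202 ± 28.1 RPKM (SD, n = 6 inputs) and *eIF3d1* lowest at 58.6 ± 3.94. Their levels in the inputs differed 3.45-fold, and every member lay between the 91.3rd and the 97.0th percentile of all genes that passed the filter.

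Between these ends the members formed 2 levels. *eIF3g1* (155 ± 5.77 RPKM, SD, n = 6), *eIF3h* (155 ± 17.2), *eIF3i* (142 ± 11.1) and *eIF3b* (138 ± 6.54) overlapped their neighbours in the order, as did *eIF3c* (98.4 ± 4.24), *eIF3a* (96.4 ± 6.08) and *eIF3e* (93.3 ± 5.38) below them. *eIF3f1* did not overlap *eIF3g1*, *eIF3b* did not overlap *eIF3c*, and *eIF3e* did not overlap *eIF3d1* in the inputs of either antibody. These are neighbours in the order of means. *eIF3f1* did overlap *eIF3h* in the Caper inputs, where its lowest level was 167 RPKM and the highest of *eIF3h* 181 RPKM.

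**Figure D1:**
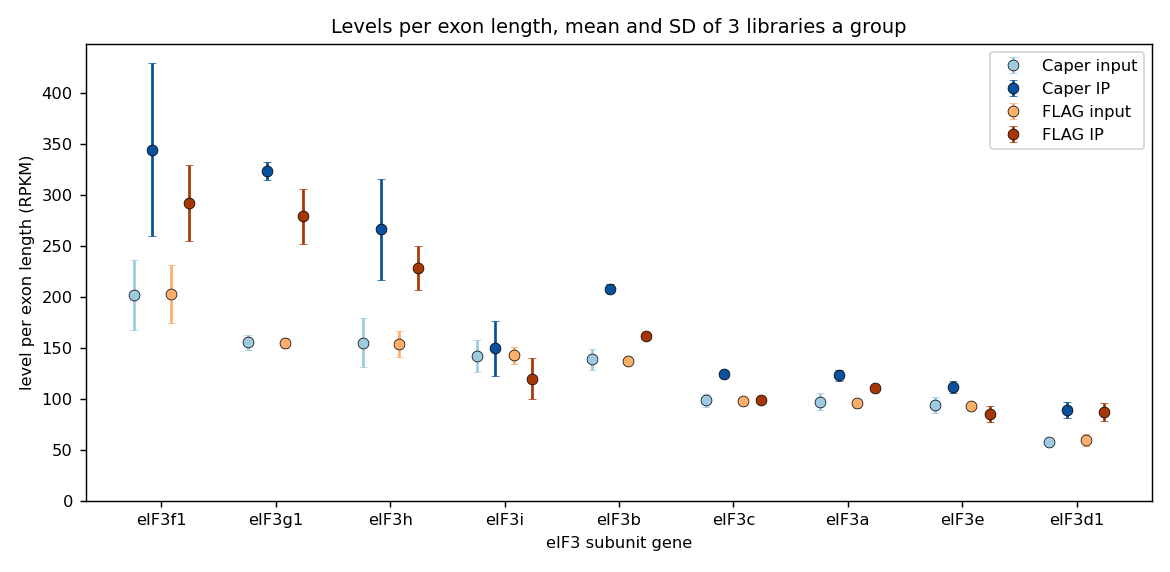
Level per exon length (RPKM, y axis) of the 9 members in each group, ordered by their level in the 6 inputs; points are means and bars SDs of 3 libraries. *eIF3f1* and *eIF3g1* are the highest in both IPs, at 344 and 323 RPKM in the Caper IP and 292 and 279 RPKM with the FLAG antibody.

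The inputs of the 2 antibodies held the 9 mRNAs at the same levels within their spread. Log2 differences (FLAG input over Caper input) lay between -0.02 and 0.05, and edgeR's quasi-likelihood test called 0 of the 9 members and 0% of the 9944 genes tested, with 176 of those genes at an unadjusted p below 0.05 and 0 called by DESeq2.

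In the IPs the members moved apart. In the Caper IP edgeR called 5 of 9 members higher than the inputs (*eIF3b*, *eIF3c*, *eIF3d1*, *eIF3g1* and *eIF3h*) and none lower, against 6.33% of the 10778 genes tested being called higher and 7.53% lower. The median log2 fold change was 0.60 over the 9 members and 0.03 over all genes. In the FLAG IP 5 of 9 were called higher (*eIF3b*, *eIF3d1*, *eIF3f1*, *eIF3g1* and *eIF3h*) and none lower, against 19.5% of 10476 genes called higher and 20.8% lower, with medians of 0.25 and -0.00. The members called higher in both IPs were *eIF3b*, *eIF3d1*, *eIF3g1* and *eIF3h*, 4 of 9, where 5.28% of the genes tested in both were called in both.

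Each IP shares its number with an input, and libraries of one number deviated together, least so for number 2 of the Caper series, so the same tests were also run with the number as a block. With the block 8 of 9 members were higher in the Caper IP, all but *eIF3i*, against 15.8% of all genes, and none was lower, against 14.8%. In the FLAG IP 6 were higher with the block (*eIF3a* in addition), against 29.6%, and *eIF3i* was then lower, where 29.5% of all genes were. Called higher in both IPs with the block were *eIF3a*, *eIF3b*, *eIF3d1*, *eIF3f1*, *eIF3g1* and *eIF3h*, against 13.2% of all genes. The same 6 genes had a higher level in the IP than in its own input in all 6 pairs, which held for 22.8% of all genes.

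**Figure D2:**
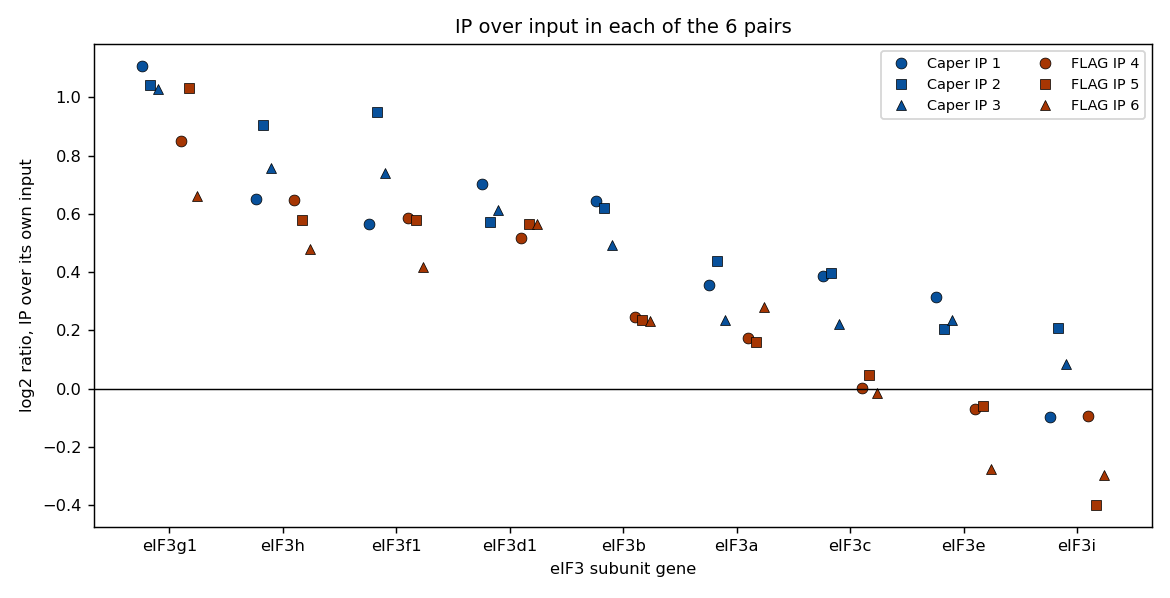
Log2 ratio of the level in an IP to that in its own input (y axis) for the 9 members, 1 point per pair, blue for the 3 Caper IPs and brown for the 3 FLAG IPs. *eIF3g1* is the highest member in all 6 pairs and *eIF3i* the lowest in 5 of 6, and 6 of the 9 members lie above 0 in every pair.

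The module of b, g and i held both ends of the range. *eIF3g1* (FBgn0029629, X chromosome from 2609247 to 2610336 in the deposited annotation) encodes an RNA-binding subunit, and its gene is the shortest of the 9, with 1027 exon bases. Its level was 153, 158 and 168 CPM in Caper inputs 1 to 3 and 329, 325 and 342 CPM in the IPs. In FLAG inputs 4 to 6 it was 158, 154 and 164 CPM, and in the IPs 284, 314 and 259.8 CPM. No IP overlapped an input with either antibody. The log2 fold change was 1.07 (SE 0.077, edgeR adjusted p = 0.00110) in the Caper IP and 0.86 (SE 0.095, adjusted p = 0.000643) with the FLAG antibody, 2.10-fold and 1.82-fold. Its increase ranked at the 98.7th percentile of all genes in the Caper IP and at the 89.4th with the FLAG antibody. It was the member called in every alternative and with every library left out, in both IPs.

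*eIF3i* (FBgn0015834, chromosome 2L from 4966367 to 4967775) encodes a WD-repeat subunit that in the yeast and human complexes lies next to g. Its inputs held 149.7, 164 and 186 CPM in the Caper series, and the IPs held 139.9, 190.0 and 197 CPM. In the FLAG series its inputs held 178, 159 and 166 CPM and its IPs 167, 120.4 and 135 CPM. IPs and inputs overlapped with both antibodies, and the IP was higher than its own input in 2 of 3 Caper pairs and in 0 of 3 FLAG pairs. The log2 fold change was 0.09 (SE 0.16, edgeR adjusted p = 0.757) in the Caper IP and -0.24 (SE 0.13, adjusted p = 0.184) with the FLAG antibody. With the block it was 0.08 (adjusted p = 0.506) and -0.25 (edgeR adjusted p = 0.0129), so only the FLAG value was then called, as lower. The FLAG value was also called lower without FLAG IP 4, at -0.39 (edgeR adjusted p = 0.0280), and it was -0.15 without FLAG IP 5 (adjusted p = 0.363). The blocked call was lost without pair 5 (edgeR adjusted p = 0.0563) or 6 (0.0754).

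Per exon length, the level of *eIF3g1* was 1.10 ± 0.0679 times that of *eIF3i* in the Caper inputs and 2.21 ± 0.418 times in the Caper IP (SD, n = 3). In the FLAG series the ratio was 1.09 ± 0.0613 in the inputs and 2.38 ± 0.542 in the IP. The 2 mRNAs thus started at like levels, and the lowest ratio in an IP, 1.95, was above the highest in an input, 1.17. They were compared because they lay at the ends of the range, so a rise of this ratio follows from the choice. Other members over *eIF3i* also had every IP ratio above every input ratio: *eIF3f1* (2.07 or more against 1.55 or less), *eIF3h* (1.74 and 1.15), *eIF3b* (1.17 and 1.05), *eIF3a* and *eIF3d1*. The ratios of *eIF3c* and *eIF3e* overlapped. *eIF3i* was taken as the low end of the range, so rises of these ratios also follow in part from the choice. The share of all genes with such ratios over *eIF3i* was not counted, so the members listed cannot be set against it.

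*eIF3b* (FBgn0034237, chromosome 2R from 17536213 to 17539142) encodes the scaffold subunit of the module. It was at 359, 354 and 403 CPM in the Caper inputs and 561, 544 and 568 CPM in the Caper IPs. In the FLAG inputs it was at 375, 365 and 364 CPM and in the FLAG IPs at 444, 431 and 428 CPM. The groups did not overlap in either series, and the gain was larger with the Caper antibody. The log2 fold change was 0.60 (SE 0.086, edgeR adjusted p = 0.0109) in the Caper IP and 0.25 (SE 0.081, adjusted p = 0.0423) with the FLAG antibody. The FLAG call was lost with a correction for exon length, at 0.12 (edgeR adjusted p = 0.215), and on leaving out any 1 of the 6 FLAG libraries, with adjusted p-values from 0.0760 to 0.15. Without a filter on low counts it was lost too (edgeR adjusted p = 0.0806). With the block the FLAG value was called (edgeR adjusted p = 0.00775), but not with the length correction added (0.135) or without pair 6 (0.0596). The Caper call was lost without Caper input 1 (edgeR adjusted p = 0.0766) or Caper input 2 (0.102).

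The shell subunits with an MPN domain, *eIF3f1* and *eIF3h*, came next to *eIF3g1* in size in the Caper IP, while in the FLAG IP *eIF3d1* lay between them. *eIF3f1* (FBgn0037270, chromosome 3R from 4712882 to 4714182, a single exon of 1301 bases) was at 217, 265 and 306 CPM in the Caper inputs and 320.3, 512 and 510.4 CPM in the Caper IPs. Its FLAG inputs held 285, 221 and 285 CPM and its FLAG IPs 428, 330.5 and 381 CPM. Caper input 1, Caper IP 1, FLAG input 5 and FLAG IP 5 were the low library of their group, and still every IP exceeded every input of its series. edgeR gave a log2 fold change of 0.79 in the Caper IP (SE 0.22, edgeR adjusted p = 0.0623) and 0.54 with the FLAG antibody (SE 0.14, adjusted p = 0.0199). In the Caper IP *eIF3f1* thus had a log2 fold change close to that of *eIF3h* with a wider error. With the block its Caper value was 0.77 (SE 0.094, edgeR adjusted p = 0.00313), and without Caper IP 1 it was 0.98 (adjusted p = 0.00761). Its FLAG call was lost without FLAG input 5 (0.43, edgeR adjusted p = 0.0519), FLAG IP 4 (0.44, adjusted p = 0.0566) or FLAG IP 6 (0.53, adjusted p = 0.0569), and in the fit of all 12 libraries (adjusted p = 0.0518).

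*eIF3h* (FBgn0022023, chromosome 2L from 5051193 to 5053094) was at 201, 224 and 271 CPM in the Caper inputs and at 316, 419.7 and 458 CPM in the Caper IPs. In the FLAG series it was at 239.7, 208 and 243 CPM in the inputs and at 375, 311 and 339 CPM in the IPs. The same 4 libraries were low as for *eIF3f1*, and the IPs again lay wholly above their inputs. Its log2 fold change was 0.79 (SE 0.18, edgeR adjusted p = 0.0355) in the Caper IP and 0.58 (SE 0.11, adjusted p = 0.00538) with the FLAG antibody. The Caper call held without Caper IP 1 (edgeR adjusted p = 0.00731) and was lost without Caper input 1 (0.136), Caper input 2 (0.176), Caper input 3 (0.0602), Caper IP 2 (0.107) or Caper IP 3 (0.0926), while the FLAG call held without any 1 library.

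*eIF3d1* (FBgn0040227, chromosome 3R from 23680039 to 23682317) encodes the subunit whose human counterpart can bind the cap of some mRNAs. It had the lowest level per exon length in the inputs, with 121, 115 and 112 CPM in the Caper series and 117, 132 and 111 CPM in the FLAG series. The IPs were at 197, 171 and 170.5 CPM with the Caper antibody and 167, 196 and 164 CPM with the FLAG antibody, above all inputs in each series. The log2 ratios of the 6 pairs lay between 0.52 and 0.70. edgeR gave log2 fold changes of 0.64 (SE 0.085, adjusted p = 0.00891) and 0.56 (SE 0.11, adjusted p = 0.00584), and the difference between the antibodies, -0.08 (SE 0.14, adjusted p = 0.834), was the smallest of the 9. The Caper call was lost without Caper input 2 (edgeR adjusted p = 0.0729).

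*eIF3a*, *eIF3c* and *eIF3e*, among the subunits with PCI domains, had lower log2 fold changes than the other members except *eIF3i*, in both IPs. With the FLAG antibody *eIF3a* (0.22) was close to *eIF3b* (0.25). *eIF3a* (FBgn0037249, chromosome 3R from 4429798 to 4433895), the largest subunit and the one on which the core assembles, was at 356 to 416 CPM in the Caper inputs and 455 to 491 CPM in the IPs, and at 355 to 389 CPM in the FLAG inputs and 422 to 435 CPM in the IPs. The ranges did not overlap in either series. Its log2 fold changes were 0.35 (SE 0.096, edgeR adjusted p = 0.0563) and 0.22 (SE 0.085, adjusted p = 0.0782), neither called. With the block both were called higher (adjusted p = 0.0156 and 0.0192), as they were by DESeq2 (adjusted p = 0.0131 and 0.0338). With the correction for exon length the FLAG value was 0.04, not called with or without the block (edgeR adjusted p = 0.661 and 0.708). The blocked calls were also lost without pair 2 (edgeR adjusted p = 0.105) or 3 (0.082) in the Caper series, and without pair 4 (0.0508) or 6 (0.179) in the FLAG series. The Caper value was also called without Caper IP 1 (0.39, edgeR adjusted p = 0.0306).

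*eIF3c* (FBgn0034258, chromosome 2R from 17665678 to 17669275), the core partner of a, was at 317, 313 and 352 CPM in the Caper inputs and 415, 411 and 410.5 CPM in the Caper IPs. Its FLAG inputs were at 332, 328 and 319 CPM and its FLAG IPs at 333, 339 and 316 CPM. The Caper IPs lay above their inputs, and the FLAG IPs lay among theirs. It had a log2 fold change of 0.35 in the Caper IP (SE 0.080, edgeR adjusted p = 0.0382) and 0.02 with the FLAG antibody (SE 0.081, adjusted p = 0.832). The Caper call was lost with the correction for exon length (edgeR adjusted p = 0.0764), and without Caper input 1 (0.187), Caper input 2 (0.226), Caper input 3 (0.0572), Caper IP 2 (0.110) or Caper IP 3 (0.0954). With the block the Caper value was called (edgeR adjusted p = 0.0155), and that call was lost without pair 2 (0.0962) or 3 (0.0801).

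*eIF3e* (FBgn0025582, chromosome 3L from 16785242 to 16786941), a shell subunit, was the member that lay on opposite sides of its inputs in the 2 series. The Caper inputs held 128, 148 and 152 CPM and the IPs 159.7, 170.1 and 179 CPM. FLAG inputs held 145, 139 and 140.1 CPM and FLAG IPs 138, 133 and 116 CPM. All 3 Caper IPs were above all their inputs and all 3 FLAG IPs below all theirs. Neither log2 fold change was called, at 0.26 (SE 0.097, edgeR adjusted p = 0.123) in the Caper IP and -0.12 (SE 0.092, adjusted p = 0.328) with the FLAG antibody. With the block the Caper value was called higher (0.27, adjusted p = 0.0270) and the FLAG value was not called (adjusted p = 0.160). The blocked Caper call was lost without pair 1 (edgeR adjusted p = 0.0632), 2 (0.0957) or 3 (0.168), and with the length correction added (0.15, adjusted p = 0.119). Without the block the Caper value was 0.17 without Caper input 1 (edgeR adjusted p = 0.386) and was called higher with library size scaling (0.42, adjusted p = 0.0237).

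Counted over the members, all 3 Caper IPs lay above all 3 inputs for 8 of 9 (all but *eIF3i*), against 18.1% of all genes, and none lay wholly below, against 18.4%. In the FLAG series this held for 6 of 9, against 25.4%, while *eIF3e* lay below in all, as did 27.9% of genes. For 1 gene on its own, exact permutation of 3 and 3 libraries has 0.1 as its smallest two-sided p.

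**Figure D3:**
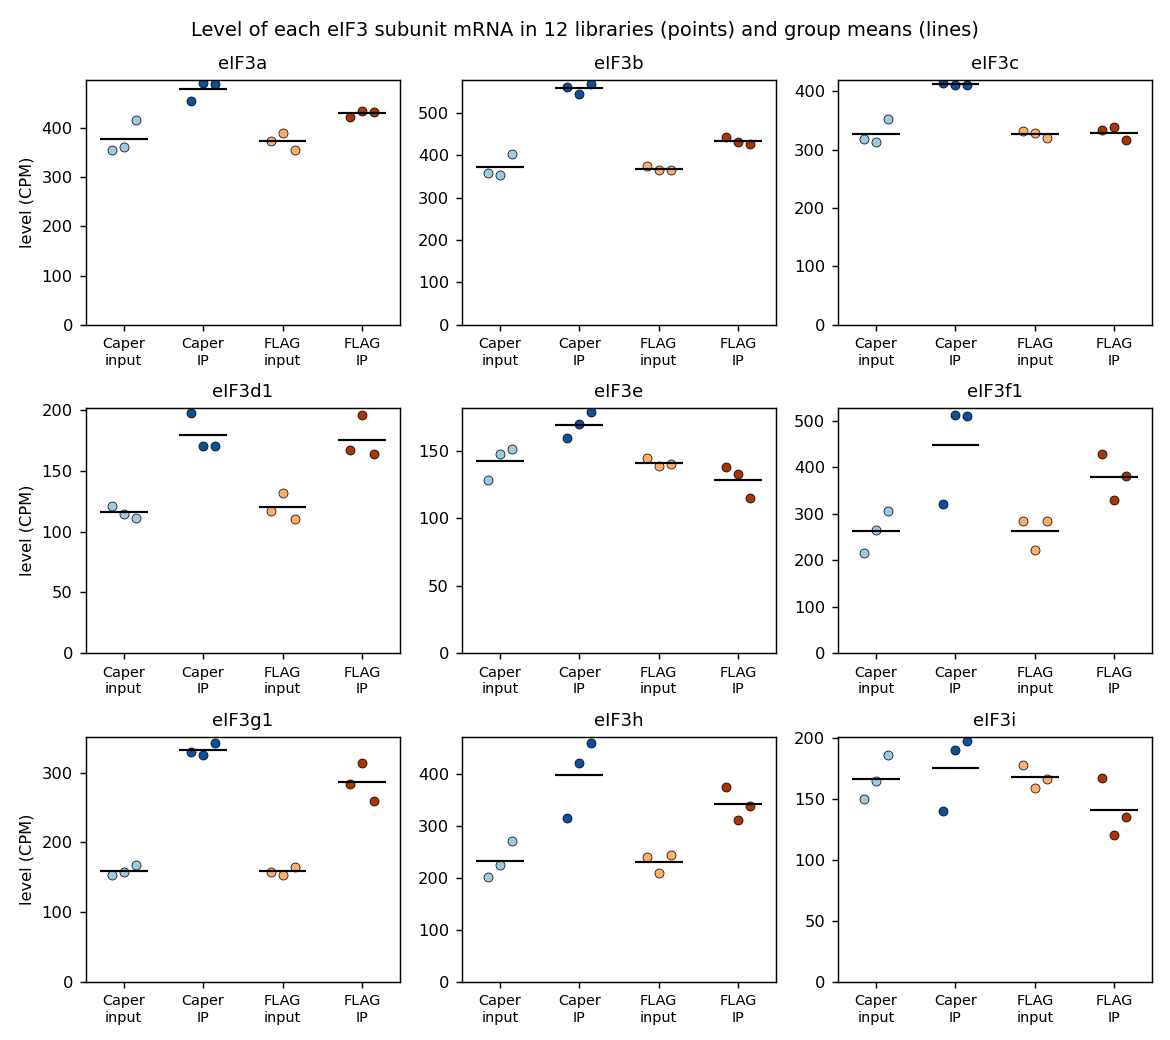
Level (CPM, y axis from 0) of each member in the 12 libraries, points for libraries and lines for the means of 3. *eIF3g1* has a mean of 159 CPM in the inputs of each antibody, 332 CPM in the Caper IP and 286 CPM with the FLAG antibody, while *eIF3i* has 167, 176 and 141 CPM in the Caper inputs, the Caper IP and the FLAG IP.

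The increases came out lower with the FLAG antibody for every member. The difference between the log2 fold changes (FLAG minus Caper) was negative for 9 of 9, against 54.7% of all genes, and ranged from -0.08 for *eIF3d1* to -0.38 for *eIF3e*. In the test of the difference itself, over all 12 libraries, edgeR called 0 of 9, against 0.963% of all genes. At an unadjusted p below 0.05 there were *eIF3b* (-0.35, SE 0.10, adjusted p = 0.132), *eIF3c* (-0.32, SE 0.099, adjusted p = 0.149) and *eIF3e* (-0.38, SE 0.13, adjusted p = 0.172). The same held for 1770 of the 11012 genes tested, in either direction. With the block 2 members were called, *eIF3b* (-0.35, edgeR adjusted p = 0.0385) and *eIF3e* (-0.39, adjusted p = 0.0309), both with the lower value in the FLAG IP, against 12.1% of all genes in either direction and 5.44% in this one, and *eIF3c* stood at 0.0516. Both blocked calls held without pair 1 and were lost without any other pair, with edgeR adjusted p-values from 0.0902 to 0.171 for *eIF3b* and from 0.0527 to 0.170 for *eIF3e*. DESeq2 called *eIF3b* and *eIF3c*, as did the block with the length correction, where *eIF3e* stood at 0.0531. In 5 members (*eIF3b*, *eIF3c*, *eIF3d1*, *eIF3e* and *eIF3h*) all 3 Caper pairs lay above all 3 FLAG pairs. The share of all genes with this order was not counted, so the 5 cannot be set against it. For *eIF3d1* the lowest Caper pair (0.571) was close to the highest FLAG pair (0.566). Each antibody has its own 3 pairs of libraries, so antibody and set of pairs cannot be told apart.

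**Figure D4:**
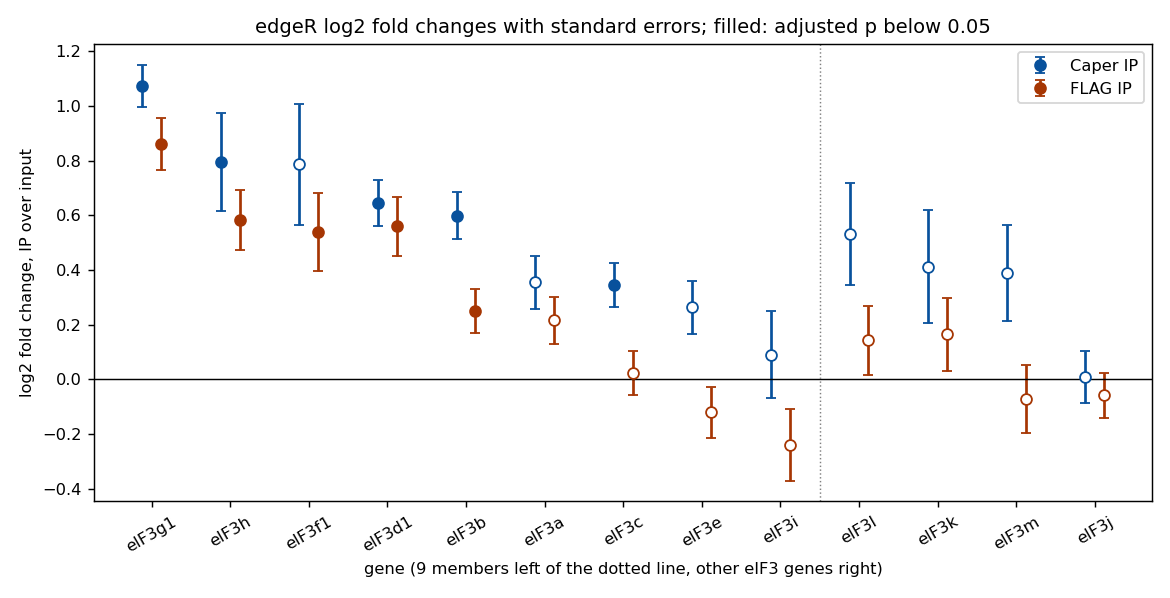
edgeR log2 fold change of IP over input (y axis) with its standard error, for the 9 members and for *eIF3j*, *eIF3k*, *eIF3l* and *eIF3m*; filled points have an adjusted p below 0.05 without the block. The FLAG value lies below the Caper value for all 13 genes, and among the 9 members each IP runs from *eIF3g1* (1.07 and 0.86) to *eIF3i* (0.09 and -0.24).

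The fold changes are relative to the bulk of each library. Scaling by library size alone moved the median log2 fold change of all genes up by 0.15 in the Caper IP and by 0.09 with the FLAG antibody, and the split of calls from 682 higher and 812 lower to 1622 and 533 in the Caper IP, and from 2045 and 2184 to 2522 and 1685 with the FLAG antibody. A change of scaling moves all genes of a library alike, so values relative to the median of all genes stay nearly the same by construction. Under both scalings *eIF3g1* was 1.04 above that median in the Caper IP and 0.86 with the FLAG antibody, and *eIF3i* was 0.06 above it and 0.24 below it. With library size scaling 8 members were called in the Caper IP and 6 with the FLAG antibody.

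Per exon length *eIF3g1* reached 323 ± 8.73 RPKM in the Caper IP, overlapping *eIF3f1* at 344 ± 84.8 (SD, n = 3). *eIF3b* and *eIF3i* overlapped in the inputs, and *eIF3b* was above *eIF3i* in both IPs without overlap, at 208 ± 4.52 against 149 ± 26.5 RPKM in the Caper IP and 162 ± 3.27 against 120 ± 20.1 with the FLAG antibody. *eIF3e* and *eIF3d1* did not overlap in the inputs or in the Caper IP, and did with the FLAG antibody (84.8 ± 7.78 and 87.2 ± 8.68 RPKM). Exon length ran from 1027 bases (*eIF3g1*) to 3892 (*eIF3a*). Across the 9 genes, which are not independent replicates, its Pearson correlation with the log2 fold change was -0.35 in the Caper IP and -0.27 with the FLAG antibody. The table's lengths count every annotated exon base and not the transcripts in use.

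Within groups the members varied together in part. After the group mean was taken off each library, 30 of the 36 pairs of members had a positive correlation over the 12 libraries, and the 6 negative ones all involved *eIF3d1*. The strongest tied *eIF3f1*, *eIF3h* and *eIF3i*, with r = 0.97 (*eIF3f1* and *eIF3h*), 0.93 (*eIF3h* and *eIF3i*) and 0.92 (*eIF3f1* and *eIF3i*), and *eIF3d1* ran against *eIF3f1* at -0.87. These correlations are over libraries that share pairs, and are given as descriptions.

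In Caper input 1, Caper IP 1, FLAG input 5 and FLAG IP 5, *eIF3f1*, *eIF3h* and *eIF3i* were the lowest of their group and *eIF3d1* the highest. The 5 fat body markers (*Yp1*, *Yp2*, *Lsp2*, *apolpp* and *FASN1*) summed to 15443, 10385 and 5301 CPM in Caper inputs 1 to 3 and to 21841, 5898 and 4766 CPM in the Caper IPs. In FLAG inputs 4 to 6 they summed to 10709, 12102 and 6815 CPM and in the FLAG IPs to 7254, 10992 and 4676 CPM. The sum was thus highest of its group in the same 4 libraries, and its part in the members' values was not tested. In such bulk libraries fewer cells of a type and less RNA per cell cannot be told apart.

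**Figure D5:**
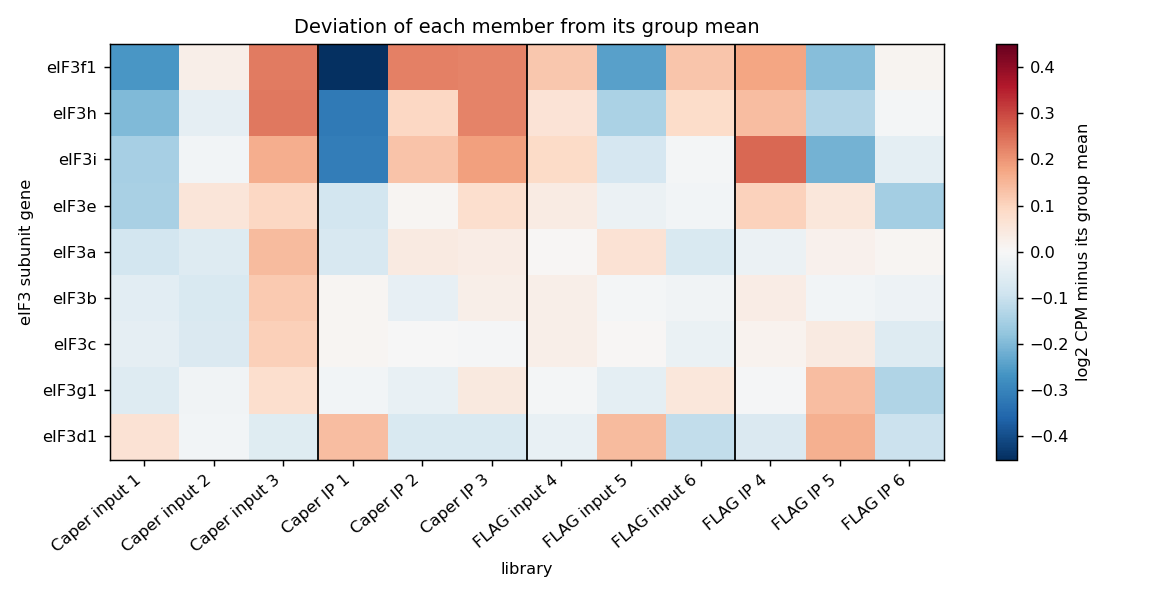
Log2 CPM of each member minus its group mean (colour, blue below and red above) in the 12 libraries (x axis, black lines between groups). The rows of *eIF3f1*, *eIF3h* and *eIF3i* are blue in Caper input 1, Caper IP 1, FLAG input 5 and FLAG IP 5, where *eIF3d1* is red.

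Of the other eIF3 genes, *eIF3k*, *eIF3l* and *eIF3m* (further shell subunits, without counterparts in the budding yeast complex) and *eIF3j* (a loosely attached subunit) were tested in both IPs, and none was called. In the Caper IP *eIF3l* had a log2 fold change of 0.53 (SE 0.19, edgeR adjusted p = 0.109), *eIF3k* of 0.41 (SE 0.21, adjusted p = 0.241), *eIF3m* of 0.39 (SE 0.18, adjusted p = 0.198) and *eIF3j* of 0.01 (SE 0.096, adjusted p = 0.969). With the block the first 3 were called higher in the Caper IP (edgeR adjusted p = 0.00522, 0.0310 and 0.0125). None of the 4 was called in the FLAG IP by either fit, with log2 fold changes from -0.07 to 0.17. Between the IPs the block gave a lower FLAG value for *eIF3l* (-0.39, edgeR adjusted p = 0.0331) and *eIF3m* (-0.46, adjusted p = 0.0163), and the fit without it called neither (0.443 and 0.347).

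The second copies were almost silent in these heads. *eIF3d2* had 0 to 33 counts in a library, *eIF3f2* 0 to 7 and *eIF3g2* 1 to 9, against 1047 or more for each of the 9 members. *eIF3d2* passed the filter in the Caper IP, where edgeR did not call it (log2 fold change -0.65, SE 1.43, adjusted p = 0.813). The counting was strand-specific, and no gene on the same strand overlaps a member. *eIF3e*, *eIF3h* and *eIF3i* each overlap a gene on the opposite strand (*CG9706*, *senju* and *CG34125*). *CG34125*, opposite *eIF3i*, was called lower in the FLAG IP (log2 fold change -0.80, edgeR adjusted p = 0.00849), as were 20.8% of all genes, and not in the Caper IP (-0.68, adjusted p = 0.0552). The values of *CG9706* and *senju* are not given here, and a link between these genes and the members was not tested.

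The other initiation factors, a list of 34 genes, gave a mixed picture. In the Caper IP 8 of the 31 tested rose and none fell, against 6.33% and 7.53% of all genes, with a median log2 fold change of 0.08. In the FLAG IP 9 of 28 rose and 7 fell, against 19.5% and 20.8%, with a median of -0.17. With the block the counts were 12 and 2 in the Caper IP, against 15.8% and 14.8% of all genes, and 10 and 9 with the FLAG antibody, against 29.6% and 29.5%. *eIF1A*, *eIF2alpha*, *eIF2Bdelta*, *eIF5B* and *NAT1* were called higher in both IPs, as were 5.28% of all genes tested in both. Of these, *eIF1A* and *eIF2alpha*, picked after their values were seen, had 0.52 and 0.74 in the Caper IP (edgeR adjusted p = 0.0377 and 0.0178). With the FLAG antibody they had 0.30 and 0.39 (edgeR adjusted p = 0.0421 and 0.0117). *eIF2gamma* was called in neither IP, at 0.24 and -0.17 (edgeR adjusted p = 0.188 and 0.178), and with the block it was called higher in the Caper IP (0.0434).

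The highest mean log2 fold changes over both IPs belonged to *eIF6*, *NAT1* and *eIF2beta*. *eIF6*, which keeps the large subunit from joining, had 0.97 in the Caper IP (SE 0.26, edgeR adjusted p = 0.0536, and 0.00427 with the block) and 1.26 with the FLAG antibody (SE 0.16, adjusted p = 0.00125), above *eIF3g1* there. *NAT1*, a relative of eIF4G, had 0.46 and 0.88, both called, and *eIF2beta* 0.46 and 0.70, called in the FLAG IP and, with the block, in both (edgeR adjusted p = 0.0143 in the Caper IP). The lowest were *eIF1*, *eIF5* and *DENR*. *eIF1*, the factor that guards start codon choice, had -0.67 in the Caper IP (SE 0.21, edgeR adjusted p = 0.0847, and 0.00660 with the block) and -1.45 with the FLAG antibody (SE 0.14, adjusted p = 0.000448), at 71.6 ± 8.64 CPM in the FLAG inputs and 26.0 ± 3.99 in the IPs (SD, n = 3). *eIF5* had -0.84 and -0.38 and *DENR* -0.38 and -0.49, none called without the block, and the FLAG value of *DENR* was called lower with it (edgeR adjusted p = 0.0118).

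Other parts of the translation machinery were counted for comparison, against the same shares of all genes: 6.33% higher and 7.53% lower in the Caper IP (15.8% and 14.8% with the block), and 19.5% and 20.8% with the FLAG antibody (29.6% and 29.5% with the block). Of 10 elongation and termination factors, 2 rose and 1 fell in the Caper IP (median 0.34) and 0 rose and 3 fell with the FLAG antibody (median -0.13). The block gave 5 and 2 in the Caper IP, and 1 and 3 with the FLAG antibody. Of the cytoplasmic ribosomal protein genes, 11 of 83 rose and 5 fell in the Caper IP (median 0.24), and 1 of 82 rose and 35 fell with the FLAG antibody (median -0.44). The block gave 29 and 13 in the Caper IP and 7 and 52 with the FLAG antibody.

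The genes whose profile over the 12 libraries was most like the mean log2 CPM of the 9 members, among the 11012 that passed the filter, were *Nacalpha*, *eIF1A*, *und*, *Non1* and *eIF2alpha*, with Pearson correlations from 0.980 to 0.988. These rest on 12 libraries in 4 groups and share the groups' differences. Their log2 fold changes lay between 0.52 (*eIF1A*) and 0.84 (*und*) in the Caper IP and between 0.27 (*Non1*) and 0.51 (*und*) with the FLAG antibody.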

How the data were processed

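The authors trimmed reads with fastp (0.20.1), mapped them with STAR (2.7.6a) to dmel_r6.36 and deposited raw counts per gene, made by strand-specific featureCounts (Subread 2.0.1) over exons at a mapping quality of at least 20, with no normalization. Replicates were not pooled. The deposited counts enter the tests as they stand. Symbols came from RefSeq genes of the Release 6 assembly at the same positions, for 17146 of 17612 genes, the 9 members included. The 9 members and the gene lists were chosen with earlier results of these data known, and no list is independent evidence.

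Tests used edgeR 4.0.16 (R 4.3.3): TMM, filterByExpr (minimum count 10, minimum total 15), the quasi-likelihood test and Benjamini-Hochberg adjustment over all genes tested. A gene was called at an adjusted p below 0.05. The standard error is the log2 fold change divided by the square root of F. Each antibody was fitted on its own 6 libraries, the difference between antibodies on all 12. CPM and RPKM use 1 set of TMM factors over the 12 libraries and 11012 genes, so ratios of CPM can differ slightly from fitted fold changes. Input titles name their IP. Deviations from group means (log2 CPM, prior count 2) correlated at 0.152 to 0.770 across genes within all 6 pairs, so the numbers were taken to pair the samples. The 12 other pairings had a median of -0.28. Deviations within a group sum to 0, so these negative values follow in part from the positive ones and are not separate evidence. The weakest pair was that of Caper IP 2, which correlated at 0.152 with its own input and at 0.565 with Caper input 3. The methods name no replicate term, and the main tests use none. No libraries were identical. The tests were run on simulated data with 200 changed genes, as a check of the code and not of the calls above.

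The text names all 9 members and the 7 other eIF3 genes, the 3 highest and 3 lowest other initiation factors tested with both antibodies, ranked by the mean of their log2 fold changes, and the 5 genes most like the members. *eIF1A*, *eIF2alpha*, *eIF2gamma*, *eIF2Bdelta* and *eIF5B* were named or described further after their values were seen, as were the fat body markers by library. Alternatives were RLE or library size scaling, DESeq2 (1.42.0, the tool of the methods), 2 other filters on low counts, the replicate block, a correction for exon length (with and without the block), all 12 libraries in 1 fit, protein-coding genes only and leaving out each library. The block without 1 pair was added after the data were seen.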

Additional observations from a re-analysis of the deposited data

Results flagged for a closer look

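The log2 fold change of *eIF3e* with the FLAG antibody minus that with the Caper antibody was -0.38. It is listed here because the IP was above its own input in 3 of 3 Caper pairs (log2 ratios from 0.21 to 0.32) and in 0 of 3 FLAG pairs (from -0.28 to -0.06). *eIF3m*, one of the other eIF3 genes, had the same pattern, with a difference of -0.46 and log2 ratios from 0.29 to 0.51 in the Caper pairs and from -0.12 to -0.02 in the FLAG pairs. The test of the difference itself did not pass in edgeR's fit without the block (adjusted p = 0.172 for *eIF3e* and 0.347 for *eIF3m*) and passed with it (adjusted p = 0.0309 and 0.0163). For *eIF3e* the blocked call was lost with the length correction added (edgeR adjusted p = 0.0531) and on leaving out any pair but pair 1 (up to 0.170), and DESeq2 did not call it (adjusted p = 0.0855).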

How the results depend on the processing

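The count of members called in the Caper IP depended most on the processing. It was 5 in the main test, 8 with library size scaling and 8 with the replicate block. Leaving out 1 library gave 1 to 7 members, and the share of all genes called higher moved too. The count was 1 without Caper input 2 (0.0433% of all genes), 2 without Caper input 1 (0.391%) and 7 without Caper IP 1 (11.2%). It was 3 without Caper input 3 (2.38%), Caper IP 2 (1.14%) or Caper IP 3 (2.5%). The FLAG IP count of 5 was 3 to 4 with 1 library left out, and 3 without FLAG input 5, FLAG IP 4 or FLAG IP 6. With 1 FLAG library left out, 12.5 to 18.1% of all genes were called higher in the FLAG IP. The remaining alternatives, RLE scaling, DESeq2, the filters, the length corrections, the 1-fit and protein-coding settings, gave 4 to 7 in the Caper IP and 4 to 6 with the FLAG antibody. Their shares of all genes called higher were 3.93 to 13.7% and 12.1 to 26.5%. With the replicate block, leaving out 1 pair gave 5 to 7 in the Caper IP and 4 to 6 with the FLAG antibody, an alternative chosen after seeing the data. There the shares of all genes called higher were 4.44 to 14.1% and 24.5 to 26.2%.

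The count of members that differ between the IPs was 0, and 2 with DESeq2, 2 with the replicate block and 2 with the length correction and block. It was 0 with any 1 library left out, and 0 to 3 with the block and 1 pair left out, with 3 without replicate 1. The shares of all genes called in either direction were then 0.00855 to 4.81% and 1.42 to 20.6%. The inputs gave 0 under every alternative, with log2 differences of the members from -0.11 to 0.12. Beyond the calls named in the text, the replicate block changed no other call of a member.

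The log2 fold change of *eIF3i* in the Caper IP changed sign with 1 library left out, ranging from -0.0036 to 0.23. That of *eIF3c* in the FLAG IP ranged from -0.0042 to 0.049 with libraries or pairs left out, and was -0.13 with the length correction, with or without the block. None of these was called. The cause was not tested.

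The share of all genes called higher in the Caper IP was 6.33% in the main test, 15% with library size scaling, 3.93% with no filter, 15.8% with the block, 13.7% with the block and length correction and 9.58% in the fit of all 12 libraries. In the FLAG IP it was 19.5%, 12.1% with no filter and 29.6% with the block. For the difference between IPs the share called in either direction was 0.963%, 5.35% with DESeq2, 0.241% with no filter, 1.92% with at least 10 counts in every library, 12.1% with the block and 9.33% with block and length correction. The level range per exon length was 3.31 to 3.65 times with 1 input left out. With their low counts *eIF3f2* and *eIF3g2* did not pass the filter in either IP, nor did *eIF3d2* in the FLAG IP, and all 9 members passed.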
